A study of Homo sapiens with 9 samples.

Results

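The 9 genes described here encode the enzymes that make serine from a glycolytic intermediate (PHGDH, PSAT1 and PSPH) and those that pass its carbon to folate (SHMT1, SHMT2, MTHFD1, MTHFD1L, MTHFD2 and ALDH1L2). They were taken by symbol from a count table of 59050 gene symbols, and all 9 were found. Each had more than 1 CPM (the usual depth-scaled read count) in at least 3 samples, the level required for testing, which 13463 of the 51726 symbols with at least 1 count reached. PHGDH exceeded this level in 8 of the 9 samples. ALDH1L2 exceeded it in 5 samples, 3 of them 2D, 2 at day 14 and 0 at day 7, so that this gene was tested because of the group in which it was high. The remaining 7 genes exceeded it in every sample.

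The serine synthesis pathway branches from glycolysis at 3-phosphoglycerate and proceeds by oxidation, transamination and removal of phosphate. Serine hydroxymethyltransferases then cleave serine to glycine and load its carbon on tetrahydrofolate, in the cytosol by SHMT1 and mainly in mitochondria by SHMT2. Mitochondria oxidize this unit to formate, which the cytosol uses to build purines and thymidylate, and proliferating lymphocytes and leukemic cells depend on these reactions to copy their DNA. The transcription factor ATF4, which responds to shortage of amino acids and to stress of the endoplasmic reticulum, is known to drive several of these genes.

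The samples were MEC1 cells, an established Chronic Lymphocytic Leukemia (CLL) line, which limits the results to 1 line of malignant B cells. The study asked how the transcriptome of conventionally grown cells differs from that of cells bioprinted in a hydrogel scaffold. There were 3 samples grown in 2D, with no time given, 3 bioprinted samples harvested after 7 days (3D_7d) and 3 harvested after 14 days (3D_14d), and no drug or genetic change is named for any group. The sample names begin with MECPGK, which the labels do not explain. Scaffold RNA went through TRIzol, a DNase I step and then a column kit, whereas 2D RNA went through the column kit, with a DNase wash, and no TRIzol, so the extraction and the culture cannot be told apart in a comparison with 2D, while both time points shared 1 extraction. The sources do not say whether replicates were separate cultures, and p-values then measure only the spread between these samples, which may be technical. As whole cultures were sequenced, fewer cells with a transcript and less of it per cell cannot be told apart.

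Between 54662799 and 85968686 reads per sample were counted in genes. Within day 14, replicate 1 stood apart from the others, its counts differing from theirs by a chi-square statistic of 253 and 305 per gene, whereas this was 155 between replicates 2 and 3 and 22.5 to 81.9 for replicate pairs of the other groups. It was also the lowest of the day 14 samples for 7 of the 9 enzymes, and values without it are given wherever a call depended on it. Without this sample 8 enzymes were called at day 7, 5 at day 14 and 8 between the time points, in place of 7, 5 and 7. All 8 B cell markers examined were expressed in every sample, with a summed level of 3313 to 3356 CPM in 2D, 3797 to 4413 at day 7 and 4558 to 5269 at day 14. Against 2D, 1 of them was called up and 1 down at day 7, where 22.2% and 21.2% of all genes were. At day 14, 4 were called up and 1 down, against 19% and 17.2% of all genes. Of the markers of other cells, CD3D, LYZ and S100A8 (T cells, macrophages and neutrophils) were at 0 in all 2D and all day 14 samples and at most at 0.0379 CPM at day 7, whereas CD3E reached 1.00 CPM and NKG7 1.81 CPM in 2D. Summed T and NK cell markers were at 313 to 358, 460 to 489 and 529 to 717 CPM in the 3 groups, nearly all from TRAC, and stromal markers at 23.5 to 27.2, 38.1 to 55.1 and 54.6 to 79.98 CPM, chiefly from PECAM1, while myeloid markers summed to 2.02 to 2.44, 1.24 to 2.84 and 3.93 to 5.15 CPM. The day 14 sum came mostly from ITGAM, at 0.938 to 1.76 CPM in 2D and 3.12 to 4.76 CPM at day 14, which was called up between the time points (log2 fold change 2.44). Immunoglobulin genes took 1.24 to 1.31% of the counts in 2D, 4.46 to 5.23% at day 7 and 4.99 to 7.13% at day 14. The part of these markers in the results was not tested.

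Promoters of 4 of the enzymes are shown because their transcripts did not move alike at day 7, when PSAT1, MTHFD1L and MTHFD2 fell and MTHFD1 rose. The sequences are the 250 bases before a RefSeq transcription start in the build GRCh38.p14, printed in the direction of the gene, and 6 of the 9 enzymes had an entry in the RefSeq table used (PHGDH, PSAT1, SHMT1, MTHFD1, MTHFD1L and MTHFD2). Capitals mark matches, on either strand, to 3 motifs: the ATF4-C/EBP composite site (TGATGNAA, in reverse TTNCATCA), the E-box bound by MYC and related factors (CACGTG) and the CCAAT box bound by NF-Y (CCAAT, in reverse ATTGG). The CCAAT box was added after the sequences had been seen. None of the matches overlapped another.
PSAT1, chr9:78296875-78297124, + strand: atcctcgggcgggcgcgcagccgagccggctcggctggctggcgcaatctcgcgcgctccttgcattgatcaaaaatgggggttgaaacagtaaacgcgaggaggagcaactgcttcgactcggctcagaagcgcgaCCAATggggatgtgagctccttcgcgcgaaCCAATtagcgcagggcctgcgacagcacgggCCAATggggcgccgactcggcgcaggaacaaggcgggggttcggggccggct
MTHFD1L, chr6:150866197-150866446, + strand: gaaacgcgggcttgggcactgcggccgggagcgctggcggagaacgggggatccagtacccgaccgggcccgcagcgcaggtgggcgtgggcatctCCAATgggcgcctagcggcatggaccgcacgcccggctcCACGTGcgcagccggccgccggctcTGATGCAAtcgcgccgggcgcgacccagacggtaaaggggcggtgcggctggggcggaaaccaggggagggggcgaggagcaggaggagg
MTHFD2, chr2:74198365-74198614, + strand: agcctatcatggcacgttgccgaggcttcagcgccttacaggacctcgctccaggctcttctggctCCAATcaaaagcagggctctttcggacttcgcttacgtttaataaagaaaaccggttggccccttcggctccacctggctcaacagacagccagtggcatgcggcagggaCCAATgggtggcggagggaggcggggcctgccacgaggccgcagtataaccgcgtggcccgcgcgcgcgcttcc
MTHFD1, chr14:64388103-64388352, + strand: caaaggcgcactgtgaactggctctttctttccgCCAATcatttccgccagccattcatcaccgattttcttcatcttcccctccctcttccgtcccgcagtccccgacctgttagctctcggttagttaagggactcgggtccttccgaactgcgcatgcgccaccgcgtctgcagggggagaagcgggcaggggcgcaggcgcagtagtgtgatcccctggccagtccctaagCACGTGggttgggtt
The composite site was found in 1 of the 6 genes, MTHFD1L, as TGATGCAA, 90 bases before this start and 129 bases before a neighbouring one. MTHFD1L had 4 start windows, and the other 2 held neither this site nor the E-box, 1 of them holding none of the 3 motifs. Of 27305 genes in the table, 3.89% held the composite site in at least 1 window. The E-box was found in MTHFD1L, 115 bases before the start, and in MTHFD1, 15 bases before it, against 7.73% of all genes. A CCAAT box was present in all 6 genes, compared with 37.0% of all genes, and PSAT1 held 3 copies, at 113, 83 and 52 bases before its start. MTHFD2 held 2 copies, at 184 and 74 bases. These matches describe letters in 250 bases and do not show that a factor binds there.

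At day 7, 6 of the 9 enzymes were down-regulated against 2D and 1 was up-regulated, where 21.2% and 22.2% of all tested genes were called down and up and 43.4% were called in all. Without overlap between the samples, 7 enzymes were lower and 1 was higher, and 64.6% of all genes did not overlap in either direction. The median log2 fold change of the 9 enzymes was -1.70, against -0.0039 over all genes. At day 14, 5 were down-regulated and 0 up-regulated, against 17.2% called down and 36.2% called in all, with a median of -0.89 against 0.02. All 9 enzymes were nevertheless lower at day 14 than in 2D without overlap between the samples, where 49.7% of all genes did not overlap in either direction. The day 7 and day 14 values share the 2D samples as their reference. Between the time points themselves, 5 enzymes were higher at day 14 and 2 were lower, against 28.1% of all genes called. A difference without overlap between 3D_14d and 3D_7d was seen for 7 enzymes, 5 higher and 2 lower, against 39.3% of all genes.

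**Figure D1:**
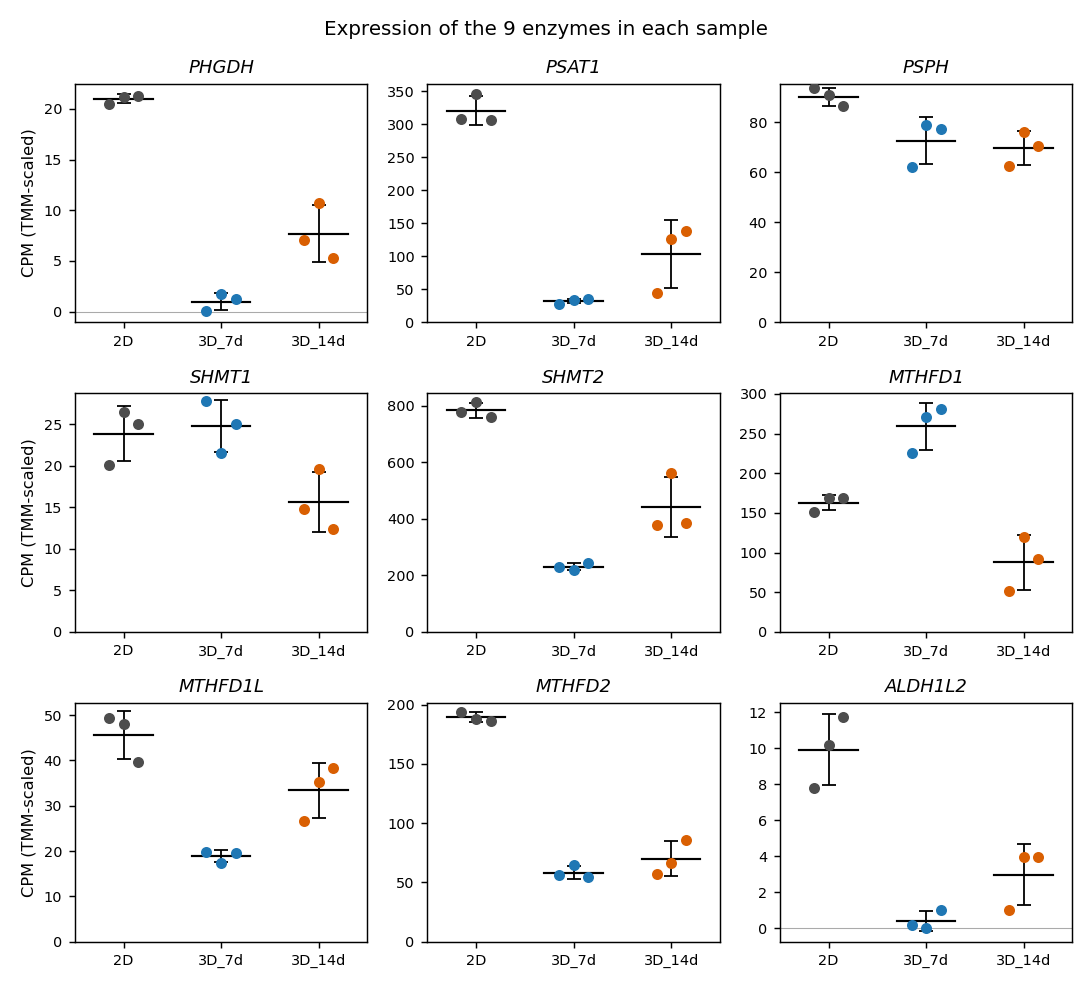
TMM-scaled CPM of each enzyme on a linear axis from 0, with 1 point per sample, the mean of 3 samples as a horizontal line and the standard deviation as an error bar. PHGDH, PSAT1, SHMT2, MTHFD1L, MTHFD2 and ALDH1L2 had their lowest means at day 7, while MTHFD1 had its highest then, at 226 to 281 CPM against 152 to 169 CPM in 2D.

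PHGDH, on chromosome 1 from 119648411 to 119744226 (GRCh38), encodes phosphoglycerate dehydrogenase, which commits 3-phosphoglycerate to serine. It was measured at 20.5, 21.2 and 21.3 CPM in the 3 2D samples, at 0.0345, 1.69 and 1.23 CPM at day 7 and at 7.02, 10.7 and 5.27 CPM at day 14. The groups did not overlap, and the 2D samples differed from each other by far less than the scaffold samples, with a coefficient of variation of 2.02% against 86.8% at day 7. The lowest library, replicate 1 of day 7, held 2 reads of PHGDH, for which the exact Poisson interval is 0.00418 to 0.125 CPM, covering counting error only. Against 2D, PHGDH was down-regulated at day 7 by a log2 fold change of -4.42 (SE 0.68, adjusted p = 0.000292), which left 4.67% of the 2D mean. Without replicate 1 of day 7, the library with 2 reads, the value was -3.84, and without replicate 2 it was -5.07. At day 14 the log2 fold change was -1.45 (SE 0.58, 95% interval -2.72 to -0.19) with an adjusted p of 0.069, so PHGDH did not pass the threshold although its highest day 14 sample was below its lowest 2D sample. The rise from day 7 to day 14, 7.82-fold, passed the test (log2 fold change 2.97, adjusted p = 0.00573). On the log2 scale it was 2.39 without replicate 1 of day 7 and 3.62 without replicate 2 of day 7.

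The day 14 result of PHGDH changed with the samples that entered the fit and with other settings. It passed with only the 6 samples of the comparison (adjusted p = 0.00275) and without replicate 1 of day 7 (adjusted p = 0.00162), with the same fold change of -1.45 in both. With all 9 samples it passed when no filter on low counts was set (-1.49, adjusted p = 2.51e-07) and when the replicate block and removal of the length trend were combined (-1.55, adjusted p = 0.0431).

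PSAT1 (chromosome 9, 78297125 to 78330093), the aminotransferase of the second step, was far more abundant. Its level was 308, 345 and 307 CPM in 2D, 27.9, 32.9 and 34.6 CPM at day 7 and 43.4, 126 and 139 CPM at day 14. Every day 7 sample was below every day 14 sample, and both were below 2D, with day 14 replicate 1 close to the day 7 range. PSAT1 was down-regulated 10.1-fold at day 7 (log2 fold change -3.33, SE 0.34, adjusted p = 1.82e-05) and 3.12-fold at day 14 (-1.64, SE 0.32, adjusted p = 0.0017), and rose 3.22-fold between them (1.69, adjusted p = 0.00263). These calls held under all 19 alternatives of scaling, tool, filter, model and sample set.

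PSPH (chromosome 7, 56011064 to 56051604, minus strand), the phosphatase that releases serine, departed little from 2D. It measured 93.5, 90.7 and 86.3 CPM in 2D, 61.8, 78.8 and 77.2 CPM at day 7 and 62.3, 76.0 and 70.5 CPM at day 14. All scaffold samples lay below all 2D samples, and the time points overlapped. The log2 fold changes were -0.31 at day 7 (95% interval -0.62 to -0.0027, adjusted p = 0.0944) and -0.37 at day 14 (-0.68 to -0.06, adjusted p = 0.0581), and neither passed the threshold. The day 7 value passed with total counts as the scaling (-0.47, adjusted p = 0.0219), with only the 6 samples of the comparison (adjusted p = 0.0284) and without day 14 replicate 1 (adjusted p = 0.0402). The day 14 value passed under 7 of the 19 alternatives, among them total counts (-0.57, adjusted p = 0.0103), DESeq2 (adjusted p = 0.0455), the length trend removed (adjusted p = 0.0328) and leaving out day 7 replicate 1 or day 14 replicate 2 (adjusted p = 0.0439 and 0.039). At day 7 the intervals of PHGDH (-5.89 to -2.95) and PSAT1 (-4.06 to -2.60) overlapped each other, and neither reached that of PSPH. Differences in size of change between the 3 steps were not tested.

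The glycolytic genes around the branch point were measured for comparison. PGK1, which makes 3-phosphoglycerate, PGAM1, which carries it on to glycolysis, and ENO1, which follows, had 0 calls in the 3 comparisons. PGAM1 ranged from 350 to 408 CPM in 2D, from 268 to 357 CPM at day 7 and from 272 to 415 CPM at day 14, with overlap throughout. The ratio of PHGDH to PGAM1 per kilobase was 0.0341 to 0.0412 in 2D, 0.000109 to 0.0035 at day 7 and 0.0131 to 0.0175 at day 14. The groups did not overlap, and each comparison had an exact permutation p of 0.1, the smallest that 3 samples against 3 allow (two-sided, 0.133 after adjustment over 12 ratio comparisons).

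SHMT2 (chromosome 12, 57229711 to 57234935), the mitochondrial hydroxymethyltransferase, was the most abundant of the 9 per kilobase in every group. It was at 777, 813 and 759 CPM in 2D, 228, 218 and 242 CPM at day 7 and 379, 562 and 383 CPM at day 14. The groups did not overlap, and day 14 lay between the other 2. Its log2 fold change was -1.77 at day 7 (SE 0.17, adjusted p = 1.14e-05), -0.83 at day 14 (SE 0.16, adjusted p = 0.00198) and 0.94 from day 7 to day 14 (adjusted p = 0.00168), and all 3 calls held under the 19 alternatives, although the last 2 values lie below an absolute log2 fold change of 1.

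SHMT1 (chromosome 17, 18327860 to 18363563, minus strand), its cytosolic counterpart, followed another course. Its level was 20.1, 26.5 and 24.97 CPM in 2D, 27.7, 21.5 and 25.01 CPM at day 7 and 14.8, 19.6 and 12.4 CPM at day 14. Day 7 and 2D overlapped, and day 14 was below both. The day 7 log2 fold change of 0.05 (95% interval -0.38 to 0.48, adjusted p = 0.848) had no stable sign. At day 14 SHMT1 was down-regulated against 2D (-0.61, adjusted p = 0.0296) and against day 7 (-0.67, adjusted p = 0.0262). Without day 14 replicate 3 these were -0.47 (adjusted p = 0.0881) and -0.52 (adjusted p = 0.0733), neither of which passed the threshold. The first was also lost without 2D replicate 2 or 3 (adjusted p = 0.117 and 0.0932), and the other without day 7 replicate 1 or 3 (adjusted p = 0.0801 and 0.0702). With only the 6 samples of the comparison neither passed (adjusted p = 0.051 and 0.0623). SHMT1 shares 6.99% of its exonic bases with SMCR8 on the opposite strand, which held 150 to 399 reads per sample against at least 692 for SHMT1, and SHMT2 shares 9.32% with genes on the opposite strand.

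MTHFD1 (chromosome 14, 64388031 to 64463457) encodes the cytosolic protein that interconverts formate, formyl, methenyl and methylene folate. It measured 152, 169 and 168 CPM in 2D, 226, 271 and 281 CPM at day 7 and 51.3, 120 and 91.8 CPM at day 14. Every day 7 sample was above, and every day 14 sample below, all 2D samples. At day 7 it was up-regulated 1.59-fold (log2 fold change 0.67, SE 0.24, adjusted p = 0.0359). This call was lost when total counts replaced TMM as the scaling (0.51, adjusted p = 0.124) and without any 1 of the 3 2D samples or replicate 2 or 3 of day 7, at values of 0.61 to 0.70. At day 14 MTHFD1 was down-regulated (-0.89, SE 0.24, adjusted p = 0.011), and between the time points it fell 2.96-fold (-1.57, adjusted p = 0.000895), both under all 19 alternatives. ZBTB25 on the opposite strand, with 801 to 3682 reads per sample, shares 2.24% of its exonic bases.

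MTHFD1L (chromosome 6, 150865549 to 151101887), whose promoter held the composite site printed above, encodes the mitochondrial enzyme that releases formate. It was at 49.4, 48.0 and 39.7 CPM in 2D, 19.9, 17.4 and 19.5 CPM at day 7 and 26.7, 35.2 and 38.4 CPM at day 14. The 3 groups did not overlap. It was down-regulated 2.41-fold at day 7 (log2 fold change -1.27, SE 0.17, adjusted p = 0.000132) and rose 1.77-fold from day 7 to day 14 (0.82, adjusted p = 0.00477). At day 14 the value of -0.45 against 2D (95% interval -0.82 to -0.08, adjusted p = 0.0555) did not pass. It passed under 6 of the 19 alternatives, namely total counts as the scaling (-0.64, adjusted p = 0.0209), TMM without immunoglobulin, ribosomal and mitochondrial genes (adjusted p = 0.0433), DESeq2 (adjusted p = 0.034), the length trend removed alone or with the replicate block (adjusted p = 0.023 and 0.0382), and leaving out day 14 replicate 3 (-0.56, adjusted p = 0.0304).

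MTHFD2 (chromosome 2, 74198610 to 74217565), the mitochondrial methylene folate dehydrogenase and cyclohydrolase, stayed low in both scaffold groups. Its level was 194, 188 and 186 CPM in 2D, 55.9, 64.4 and 54.4 CPM at day 7 and 57.2, 66.4 and 86.2 CPM at day 14. The scaffold groups overlapped each other and did not overlap with 2D, with means of 30.7% and 36.9% of the 2D mean. MTHFD2 was down-regulated 3.25-fold at day 7 (log2 fold change -1.70, SE 0.16, adjusted p = 1.3e-05) and 2.71-fold at day 14 (-1.44, SE 0.16, adjusted p = 5.24e-05), while the difference between them was 0.26 (95% interval -0.08 to 0.61, adjusted p = 0.229). The latter passed without day 14 replicate 1 (0.39, adjusted p = 0.0464) and with the length trend removed (0.42, adjusted p = 0.0336). Of the exonic bases of MTHFD2, 36.7% are shared with other genes. Of them, 30.0% are shared with SLC4A5 on the opposite strand, for which 3 to 39 reads per sample were counted against at least 2868 for MTHFD2. Whether reads in shared bases were counted at all is not given, so MTHFD2 may be undercounted. The paralog MTHFD2L, also mitochondrial, was at 1.21 to 3.89 CPM over the 9 samples and was called in 0 of the 3 comparisons.

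ALDH1L2 (chromosome 12, 105019790 to 105107643, minus strand) encodes the mitochondrial formyl folate dehydrogenase, which oxidizes the unit to carbon dioxide. It was the least expressed of the 9, at 7.81, 10.2 and 11.7 CPM in 2D, 0.155, 0 and 1.00 CPM at day 7 and 1.02, 3.96 and 3.95 CPM at day 14. These values rest on 9, 0 and 53 reads at day 7, where the count of 0 allows a level of up to 0.0546 CPM at 3 counts, or 0.0672 CPM by the exact Poisson interval. Day 7 and day 14 samples lay below all 2D samples, and the highest day 7 sample and the lowest day 14 sample were nearly equal. ALDH1L2 was down-regulated at day 7 by -4.70 on the log2 scale (SE 0.88, adjusted p = 0.00108), a value that moved to -6.97 without day 7 replicate 3 and to -4.11 without replicate 2. The day 14 value of -1.74 (95% interval -3.35 to -0.12, adjusted p = 0.0858) did not pass, but it did with only the 6 samples of the comparison (adjusted p = 0.0151), without day 7 replicate 2 or 3 (adjusted p = 0.032 and 0.025), with the replicate block (-1.92, adjusted p = 0.0395) and with no filter on low counts (-1.79, adjusted p = 1.02e-06). The rise from day 7 to day 14 of 2.96 passed (adjusted p = 0.0208) but not with DESeq2 (2.94, adjusted p = 0.0645), with only the 6 samples of the comparison (2.95, adjusted p = 0.0586), without day 7 replicate 1 (2.58, adjusted p = 0.0753) or without day 14 replicate 3 (2.70, adjusted p = 0.0603). Without day 7 replicate 3 it was 5.23, and without day 7 replicate 2 it was 2.37. Its cytosolic counterpart ALDH1L1 was at most at 0.23 CPM in any sample and was not tested.

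**Figure D2:**
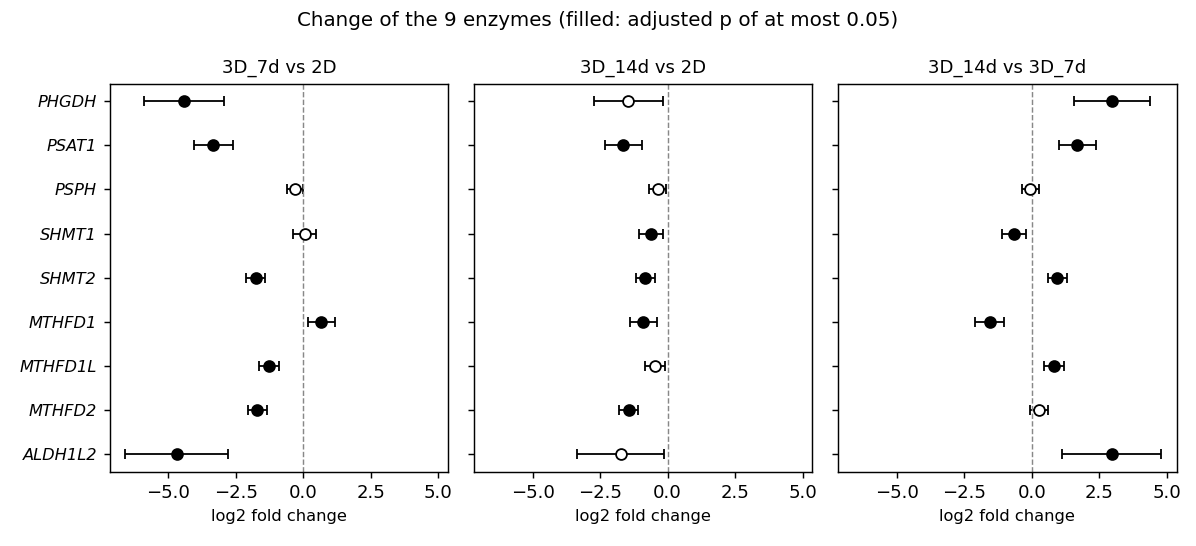
Log2 fold change (horizontal axis) of the 9 enzymes in the 3 comparisons, as points with 95% intervals from edgeR, filled where the adjusted p was at most 0.05. PHGDH and ALDH1L2 had the widest intervals, -5.89 to -2.95 and -6.61 to -2.79 at day 7, and MTHFD1 was the only enzyme called higher at day 7.

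Per kilobase of exon, the order of the enzymes changed with culture. The exon length includes bases shared with other genes, so levels and shares set side by side between genes may be biased if reads there were not counted. In 2D, mean RPKM (CPM divided by exon length, TMM-scaled) fell from SHMT2 (296) through PSAT1 (145), MTHFD2 (43.0), PSPH (41.3), MTHFD1 (20.5), MTHFD1L (11.9), SHMT1 (8.46) and PHGDH (7.89) to ALDH1L2 (1.197). The neighbours MTHFD2 and PSPH, and SHMT1 and PHGDH, overlapped between samples. At day 7 the order was SHMT2 (86.7), PSPH (33.3), MTHFD1 (32.6), PSAT1 (14.4), MTHFD2 (13.2), SHMT1 (8.78), MTHFD1L (4.95), PHGDH (0.371) and ALDH1L2 (0.0467). PSPH overlapped with MTHFD1, PSAT1 with MTHFD2 and PHGDH with ALDH1L2. PSAT1 stood below PSPH, the following enzyme of its pathway, and MTHFD1 stood above MTHFD2, in all day 7 samples, whereas both pairs had the opposite order in all 2D samples. At day 14 PSAT1 (46.5) overlapped with PSPH (31.9), and MTHFD2 (15.9), MTHFD1 (11.01) and MTHFD1L (8.74) overlapped with their neighbours, while SHMT2 (167), SHMT1 (5.54), PHGDH (2.88) and ALDH1L2 (0.359) stood apart.

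The enzymes of the cytosol and of mitochondria were also compared within each library, where the scaling does not enter. The ratio of SHMT2 to SHMT1 per kilobase was 32.3 to 41.1 in 2D, 8.75 to 10.8 at day 7 and 27.2 to 32.8 at day 14. The mean log2 ratio was 1.83 lower at day 7 than in 2D without overlap, and 0.22 lower at day 14 with overlap (exact p = 0.3). The ratio of MTHFD1L to MTHFD1 was 0.49 to 0.678 in 2D, 0.134 to 0.183 at day 7 and 0.612 to 1.08 at day 14, and its mean log2 value was 1.93 lower at day 7 without overlap and 0.52 higher at day 14 with overlap (exact p = 0.2). The exact permutation p of both day 7 differences was 0.1, the smallest possible, or 0.133 after adjustment. MTHFD2 against MTHFD2L did not overlap with 2D at either time point (exact p = 0.1 each), with ratios of 39.6 to 109 in 2D, 15.5 to 27.0 at day 7 and 15.6 to 26.7 at day 14.

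Of the summed RPKM of the 6 folate enzymes, SHMT1 and MTHFD1 made up 6.94, 7.76 and 8.10% in 2D, 26.9, 29.1 and 28.8% at day 7 and 6.70, 8.49 and 8.36% at day 14. Day 7 stood apart, and 2D and day 14 overlapped. The 4 mitochondrial enzymes summed to 341 to 363 RPKM in 2D, 102 to 109 at day 7 and 163 to 237 at day 14, and the 2 cytosolic ones to 26.2 to 30.6, 38.2 to 44.2 and 11.7 to 22.0 RPKM. At day 7 the sums therefore moved in opposite directions, and at day 14 both were below 2D. The cytosolic rise came from MTHFD1, with means of 20.5 RPKM in 2D and 32.6 at day 7, against 8.46 and 8.78 for SHMT1. Most of the mitochondrial sum was SHMT2, with means of 296 RPKM in 2D and 86.7 at day 7.

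**Figure D3:**
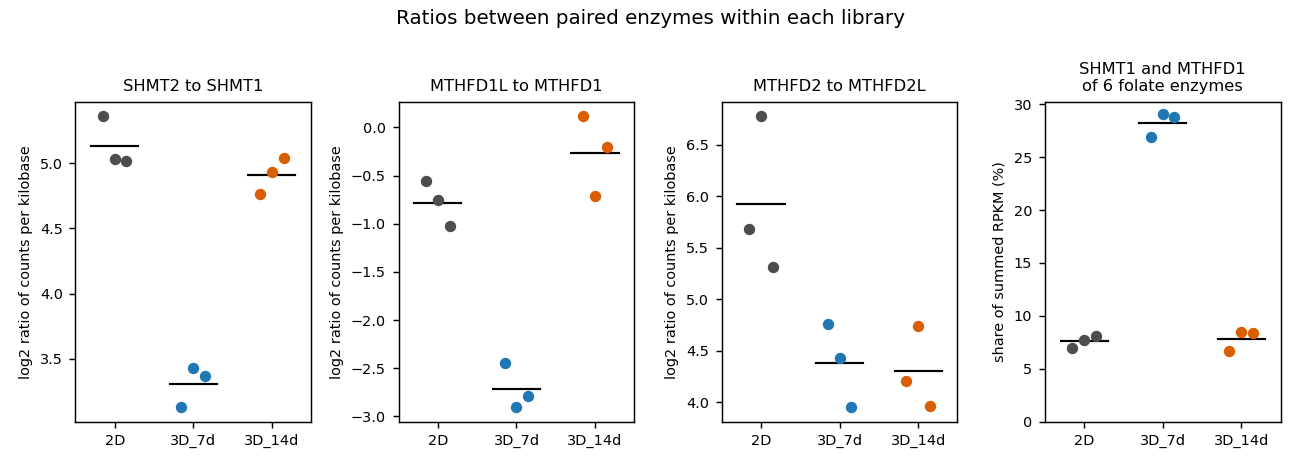
Log2 ratios of counts per kilobase for 3 pairs of enzymes and, at the right, the share of SHMT1 and MTHFD1 in the summed RPKM of 6 folate enzymes, with 1 point per sample and the group mean as a line. The ratio axes do not start at 0. Day 7 stood apart from 2D in all 4 panels, with a cytosolic share of 26.9 to 29.1%, and day 14 overlapped with 2D in all but the ratio of MTHFD2 to MTHFD2L.

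Genes that use or carry folate beyond the 9 enzymes were taken as a list of 30, of which 21 were expressed highly enough for testing. At day 7, 5 were up-regulated, a share close to the 22.2% of all genes, and 2 down-regulated, against 21.2%, with a median of 0.38. The 5 included the purine synthesis genes GART and ATIC, which consume formyl folate. GART rose from 131 to 148 CPM in 2D to 255 to 331 CPM (log2 fold change 1.08, adjusted p = 0.000465), and ATIC from 198 to 204 CPM to 290 to 394 CPM (0.80, adjusted p = 0.0014). FPGS, which retains folate in cells, and DLD, a subunit of the glycine cleavage system and other complexes, rose by 0.64 and 0.62, whereas GGH, the hydrolase opposed to FPGS, fell by 0.61 on the log2 scale and FOLR2, a folate receptor, by 2.01.

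At day 14, 6 genes of the list were down-regulated and 1, MTHFS, was up-regulated, against 17.2% and 19% of all genes. GGH changed by -1.27 and SFXN2, a mitochondrial carrier, by -0.95. TYMS, thymidylate synthase, was among the former. It was at 58.5 to 66.5 CPM in 2D, 46.6 to 59.5 CPM at day 7 and 23.6 to 29.7 CPM at day 14. Day 14 was below both other groups, and day 7 overlapped with 2D. Against 2D, TYMS changed by -1.29 (adjusted p = 9.13e-05) at day 14, and its value of -0.28 at day 7 did not pass (adjusted p = 0.163). TYMS shares 66.5% of its exonic bases with other genes, and MTHFS 49.3%, so reads of these neighbours may affect both counts. Between the time points 9 genes of the list fell and 1 rose (FOLR2, 2.47), against 13.6% and 14.5% of all genes. SFXN2 (-1.35), GART (-1.09) and TYMS (-1.01) were among those that fell. SLC25A32, the mitochondrial folate carrier, was listed at 0 in every sample, but it is a gene that cells generally express, and the value is not read as absence of the transcript. Of its exonic bases, 99.3% are shared with other annotated genes. The part of this overlap in the 0 was not tested.

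Of 13 genes of the methionine cycle, transsulphuration and glutathione synthesis, 10 were tested. CTH and CBS, the transsulphuration enzymes that together make cysteine from homocysteine and serine, had the lowest fold changes of this list at day 7. CTH was at 128 to 147 CPM in 2D, 7.70 to 9.85 CPM at day 7 and 26.4 to 67.8 CPM at day 14, and the groups did not overlap. It was down-regulated 15.1-fold at day 7 (log2 fold change -3.92, adjusted p = 4.45e-06) and 2.60-fold at day 14 (-1.38, adjusted p = 0.00214). CBS changed by -4.81 and -2.17, but its counts are uncertain because GRCh38 holds a near-identical copy, CBSL. It was at 3.31 to 4.05 CPM in 2D and 0.0345 to 0.19 CPM at day 7, so it too was tested because of a group in which it was high. In all, 4 genes of this list rose at day 7 (MAT2A, MAT2B, GSS and GCLC, which make the methyl donor and glutathione) and 3 fell, against 22.2% and 21.2% of all genes, and 2 rose and 4 fell at day 14, against 19% and 17.2%. The third that fell, MTAP of methionine salvage, changed by -0.82 at day 7 and -1.22 at day 14. AHCY, which hydrolyses S-adenosylhomocysteine, changed by -0.88 at day 14 and by -1.13 between the time points, and GNMT, which methylates glycine, was up-regulated by 2.05 at day 14. GNMT was at 0.263 to 0.667 CPM in 2D and 1.09 to 2.92 CPM at day 14, so it was tested because of the samples in which it was high.

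Genes for transport and use of serine and glycine numbered 16, of which 14 were tested, and 6 rose and 2 fell at day 7, against 22.2% and 21.2% of all genes. SLC6A9, a glycine transporter, was down-regulated by -4.61 (adjusted p = 0.000234), from 5.89 to 6.56 CPM to 0 to 0.466 CPM, and rose by 3.43 from day 7 to day 14. SLC1A5, which exchanges neutral amino acids, fell by 1.40 on the log2 scale at day 7 and by 0.78 at day 14. SDSL, which is related to serine dehydratase, was up-regulated by 2.49 and 2.17, and PTDSS1, which makes phosphatidylserine, by 1.00 at day 7. SLC38A5, an amino acid transporter, and SPTLC1, which begins sphingolipid synthesis from serine, rose by 0.75 and 0.68 at day 7. At day 14, 2 genes of this list rose (SDSL and SERINC1, the latter by 0.59) and 1 fell, below the 36.2% of all genes called. Between the time points PTDSS1, SLC38A5 and SRR, serine racemase, fell by 0.73, 0.66 and 0.70 on the log2 scale.

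ATF4 was at 622, 611 and 615 CPM in 2D, 201, 208 and 191 CPM at day 7 and 630, 546 and 475 CPM at day 14. Day 7 was below both other groups, and day 14 overlapped with 2D. The log2 fold change was -1.62 at day 7 (SE 0.14, adjusted p = 7.23e-06), -0.16 at day 14 (95% interval -0.46 to 0.13, adjusted p = 0.375) and 1.46 between the time points (adjusted p = 8.68e-05). Of ATF4 and 21 genes known as its targets, none of which is among the 9 enzymes, 21 were tested. At day 7, 19 were down-regulated, against 21.2% of all genes, and 1 up-regulated (ALDH18A1, of proline synthesis), against 22.2%. The median was -1.62, close to that of the 9 enzymes. ASNS of this list was at 1.37 to 1.84 CPM in 2D and 0.164 to 0.228 CPM at day 7, so it was tested because of 2D. CHAC1, which degrades glutathione, fell by 4.51 on the log2 scale, GPT2, a mitochondrial aminotransferase, by 2.85, and DDIT3, a factor of the stress response, by 1.90.

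At day 14, 13 of these 21 genes were down-regulated and 0 up-regulated, against 17.2% and 19% of all genes, with a median of -0.66. When 1 sample was left out, 7 to 13 genes of the list were called at day 14. Those down-regulated included PYCR1 of proline synthesis (-1.33), GPT2 (-1.26), TRIB3 (-0.92) and the amino acid transporter subunit SLC3A2 (-0.81). From day 7 to day 14, 16 rose and 1 fell, against 14.5% and 13.6% of all genes, with a median of 1.10. At day 14, 5 enzymes were called below 2D, among them PSAT1, SHMT2 and MTHFD2 (-1.64, -0.83 and -1.44), where ATF4 overlapped with 2D. From day 7 to day 14, 5 enzymes rose, as ATF4 did, and 2 fell. Only the RNA of ATF4 was measured, not its protein or activity. MYC, another factor linked to these genes, was at 426 to 487 CPM in 2D, 74.6 to 107 CPM at day 7 and 76.0 to 128 CPM at day 14. It was down-regulated at both time points (-2.30 and -2.09) and the time points overlapped. NFE2L2, a factor of the oxidative stress response listed beside MYC, changed by -0.79 and -0.70, both called. The part of ATF4, MYC and NFE2L2 in the changes of the enzymes was not tested.

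Genes of the cell cycle were listed beside the enzymes. Of 16 proliferation genes, 9 fell, 5 rose and 2 were not called at day 7, against 21.2% called down and 22.2% called up over all genes. Those that rose were PCNA and the replication licensing genes MCM3, MCM4, MCM5 and MCM6, for example MCM4 by 1.11 and MCM5 by 0.92, and those that fell act in mitosis or mark cycling cells, for example UBE2C (-1.52), CCNB1 (-1.06), AURKB (-1.54) and MKI67 (-1.88). At day 14 all 16 were down-regulated, against 17.2% of all genes, with a median of -1.22, among them CCNA2 (-1.80) and CDK1 (-1.74). The direction of MTHFD1, higher at day 7 and lower at day 14, was that of PCNA, MCM3, MCM4, MCM5 and MCM6. Its values were 0.67 and -0.89, beside 0.67 and -1.06 for MCM6. Of all tested genes MCM6 is the nearest to MTHFD1 in profile over these same samples, so the likeness of these values is not separate from that nearness. MCM2 and MCM7 of the same list were not called up at day 7. The part of the cell cycle in the changes of the enzymes was not tested.

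**Figure D4:**
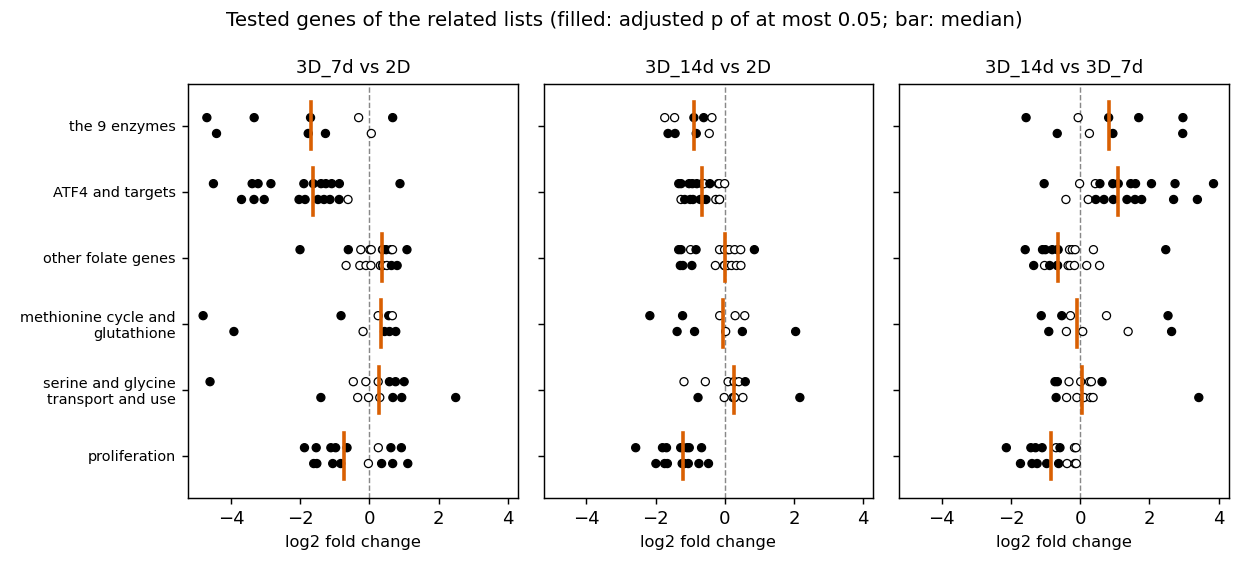
Log2 fold change of every tested gene of 6 lists in the 3 comparisons, with filled points for an adjusted p of at most 0.05, open points for others and a bar at the median of each list. At day 7 the 9 enzymes and the ATF4 list had medians of -1.70 and -1.62, other folate genes 0.38, and at day 14 the proliferation list was lowest at -1.22.

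The genes whose profiles lay nearest to each enzyme were found from log2 CPM over the 9 samples, centred for each gene, as the smallest root mean square difference among all tested genes. For MTHFD1 the nearest was MCM6, at 0.11, followed by C1orf112 and TSR1. For SHMT2 it was SELPLG, at 0.16, followed by TRIB3, an ATF4 target, at 0.17. For MTHFD2 it was TUBE1 (0.10), for MTHFD1L HIC1 (0.12), for SHMT1 DSN1 (0.08) and for PSPH STARD3NL (0.05). PSAT1 had no gene as near, RGS1 being at 0.27, and PHGDH and ALDH1L2, with their few reads at day 7, lay at 0.79 from AC020659.1 and 0.81 from SPNS3. SLC6A9, the glycine transporter above, was the next nearest to ALDH1L2, at 0.91. Among the 9 enzymes, SHMT2 and MTHFD1L were the closest pair (0.28) and MTHFD1 and ALDH1L2 the farthest (3.06). The 9 libraries and 3 group means are common to all these distances, which describe likeness of pattern only.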

How the data were processed

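RNA of 9 samples of the MEC1 line was measured in 3 groups (2D, 3D_7d and 3D_14d, 3 samples each). According to the sources used here, the authors made SMART-Seq libraries from a small RNA input, read 1 end of each fragment, and used Trimmomatic 0.39, STAR 2.5.3a on GRCh38 and featureCounts 1.6.4, per the submitters' processing notes. The deposited values are the raw counts per gene symbol, without normalization, with a summed exon length per symbol. The strand setting and the treatment of multiply aligned reads are not given in the sources used here, so reads of overlapping genes and near-identical copies cannot be separated. Pseudogene copies of the enzymes held at most 18 counts per sample.

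Samples were grouped by the labels, and replicate numbers were not used as pairs. The 9 enzymes, the gene lists and the tests were chosen with earlier results of these data known. A gene was tested where at least 3 samples exceeded 1 CPM (13463 genes). In R 4.3.3, edgeR 4.0.16 computed TMM factors, fitted 1 model to all 9 samples and applied its quasi-likelihood test to 3 contrasts, with Benjamini-Hochberg adjustment over all tested genes and a threshold of 0.05. Standard errors were derived from the fold change and its F statistic. Ratios used counts per kilobase and exact two-sided permutation tests (SciPy 1.17.1). The pipeline was tested on simulated data. Alternatives were other scalings, DESeq2 1.42.0, other filters, a fit of 6 samples per contrast, a block for the replicate number, removal of a trend with gene length, a minimum fold change and leaving out each sample. The text names all 9 enzymes, up to 4 called genes per direction, list and contrast by smallest p (for lists of other cell types and B cells, summed levels instead), ATF4, MYC, MTHFD2L, ALDH1L1, TYMS and PGAM1, and the nearest profiles of each enzyme. A further gene of this rule is counted in its list but not reported here. PGK1, ENO1, SLC4A5, SMCR8, ZBTB25, PCNA, SLC25A32, ASNS, CD3D, CD3E, LYZ, S100A8, NKG7, ITGAM, TRAC and PECAM1 were named after their values had been seen. The spread between replicates exceeded counting error, also for PHGDH and ALDH1L2 at day 7, and set the precision.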

Additional observations from a re-analysis of the deposited data

Results flagged for a closer look

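For 7 of the 9 enzymes the change against 2D differed between the time points, which was tested directly as 3D_14d against 3D_7d in edgeR's quasi-likelihood fit. The difference, day 14 minus day 7 on the log2 scale, was 2.97 for PHGDH, 1.69 for PSAT1, 0.94 for SHMT2, 0.82 for MTHFD1L and 2.96 for ALDH1L2, all higher at day 14, and -0.67 for SHMT1 and -1.57 for MTHFD1, both lower. Among the other genes named, it was -1.01 for TYMS and 1.46 for ATF4. Each of these passed the threshold, and the samples of the time points did not overlap for any of them. Single far samples were not tested for, since every group held 3 samples.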

How the results depend on the processing

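Under the alternatives, 461 of 513 fold changes of the enzymes kept their direction and their side of the threshold, 27 passed it newly, 18 no longer passed and 7 changed sign. The called changes of PHGDH, PSAT1, SHMT2, MTHFD1 (day 14 and between time points), MTHFD1L and MTHFD2, and of ALDH1L2 at day 7, kept both under the 19 alternatives of scaling, tool, filter, model and sample set. The changes of sign concerned values near 0: SHMT1 at day 7 was -0.10 with total counts, -0.019 with the length trend removed and -0.011 with this and the replicate block together, and ranged from -0.055 to 0.15 when 1 sample was left out. PSPH between the time points ranged from -0.16 to 0.013, and the log2 ratio of MTHFD2 to MTHFD2L from -0.30 to 0.11, when 1 sample was left out.

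With a minimum absolute log2 fold change of 1, 2757 genes were called at day 7, 2172 at day 14 and 1458 between the time points, in place of 5838, 4875 and 3785, and 2 and 4 enzymes in the last 2 comparisons in place of 5 and 7. The enzymes then lost were SHMT1, SHMT2 and MTHFD1 at day 14 and SHMT1, SHMT2 and MTHFD1L between the time points, and MTHFD1 at day 7. With only the 6 samples of the contrast, 2427 genes were called between the time points. When 1 sample was left out, 4450 to 7217, 3315 to 5317 and 2250 to 4357 genes were called, and 6 to 8, 4 to 7 and 5 to 8 enzymes. The numbers called in the related lists also depended on the setting. Over all alternatives, 4 to 15 genes of the ATF4 list were called at day 14 and 2 to 13 other folate genes at day 7. For transport and use of serine and glycine, 1 to 7 genes were called at day 14. With the replicate number as a block, 7, 6 and 7 enzymes were called among 5760, 4819 and 3683 genes, and 8 at day 14 with the length trend removed as well. The cause was not tested. Samples with the same number correlated at -0.10 to 0.19 in their deviations from the group means, and those with different numbers at -0.13 to 0.08. Between 2D and day 14, same numbers gave 0.185, 0.108 and 0.093, and different numbers at most 0.040. The labels do not mark pairs, so the numbers were not taken as pairs, and whether they mark shared cultures was not tested.

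Total counts as the scaling moved the median of all genes by -0.16 at day 7 and -0.20 at day 14, with 37.6% and 33.1% of the calls higher in place of 51.1% and 52.5%. No enzyme called at either time point changed direction under it. At day 7, PHGDH and ALDH1L2 rest on at most 93 reads per sample, and their samples differed by more than counting error.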
